A study of Mus musculus with 28 samples.

Results

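The genes described here encode the subunits of neurotransmitter receptors, as they appeared among ribosome-bound mRNAs of retinal ganglion cell (RGC) axons and of the retina. They were chosen by symbol: AMPA, kainate, NMDA and delta subunits (Gria, Grik, Grin, Grid), metabotropic glutamate receptors (Grm), GABA-A and GABA-B subunits (Gabr, Gabbr), glycine receptor subunits (Glra, Glrb) and nicotinic acetylcholine receptor subunits (Chrn). The rule found 67 of the 23995 genes listed, of which 66 are receptor subunits and 1 is Grin1os, an antisense RNA that lies across the 3′ part of Grin1. Axon-TRAP recovers mRNAs through an HA tag on the ribosomal protein RPL22. All mice were C57BL/6, from a cross of Pax6-alpha-Cre with the RiboTag knock-in strain. That Cre is active for a time in progenitors of the peripheral retina, so that RGCs and other retinal cells of that region carry the tag. Cre-positive superior colliculus (SC) therefore held tagged ribosomes in RGC axons, Cre-negative SC came from littermates without the tag and gave the background of the pulldown, and the retina libraries came from Cre-positive eyes. Each library was made from tissue pooled from several animals. These 3 sources were collected before birth (E17.5), after birth (P0.5 and P7.5) and as Adult tissue, so at 4 stages, with 2 replicates each (24 libraries). A further 4 libraries gave read counts for adult tissue, either Cre-positive SC or retina, and either left as it was or taken through ribosome run-off (1 library each). The paper calls the Cre-positive and Cre-negative replicates biological, but the labels do not say whether replicates came from separate animals. P-values therefore measure the spread between these libraries.

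Receptor subunits assemble into channels or G-protein-coupled dimers. AMPA, kainate and NMDA receptors are tetrameric cation channels opened by glutamate, GABA-A and glycine receptors are pentameric chloride channels, nicotinic receptors are pentameric cation channels opened by acetylcholine, and metabotropic glutamate and GABA-B receptors act through G proteins. Many are best known at the postsynaptic membrane, but NMDA, kainate, group II metabotropic glutamate, GABA-B and nicotinic receptors also act in axons and terminals, and nicotinic signalling drives the spontaneous retinal waves of the first postnatal days.

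The 24 libraries differed widely in how many genes they contained. Between 1162 (adult Cre-negative SC replicate 2) and 8769 (E17.5 retina replicate 2) genes were above 0 FPKM (fragments scaled to transcript length and to the mapped total), and between 3 and 25 receptor genes. The files of these libraries give no read totals, so their depth is unknown. A listed 0 can be a failed estimate: Gapdh and Ppia, genes that every cell uses, were at 0 in 18 and 21 of the 24 libraries and did not reach 1 FPKM in any. Other such genes were mixed: Ywhaz reached 1 FPKM in 24 libraries, Eef1a1 in 23, Actb in 18, Pgk1 in 5 and Hprt in 3. Zeros are therefore given as listed, without a fold. E17.5 Cre-negative SC replicate 1 stood apart, with 19 receptor genes at 1 FPKM or more against 1 to 12 in the other libraries, and it held the highest value of 11 of the 32 genes that reached 1 FPKM anywhere. Of the receptor genes at 1 FPKM or more in either replicate of a group, 37.7% (40 of 106 over the 12 groups) were listed at 0 in the other, against 38.2% of all genes. At P0.5 this happened for none of the 11, 5 and 1 receptor genes found in the 3 sources (both SC genotypes and retina). Among all genes the share at P0.5 was low as well: 1.81% in tagged SC, 3.19% in untagged SC and 1.80% in retina. The receptor genes thus did not stand out at this stage.

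Glutamate receptor mRNAs were the most widely detected. In all 24 libraries together, 25 of the 67 genes (37.3%, against 45.8% of all genes) were listed at 0 throughout and 32 (47.8%, against 39.0%) reached 1 FPKM at least once. All 4 AMPA subunits and 7 of the 8 metabotropic glutamate receptors reached 1 FPKM, as did 4 of 7 NMDA subunits and 2 of 5 kainate subunits, whereas neither delta receptor did. Of the receptors for inhibitory transmitters, 6 of 17 GABA-A subunits, 1 of 2 GABA-B subunits (Gabbr1, which binds GABA) and 2 of 5 glycine receptor subunits reached it. Of the nicotinic subunits 6 of 16 did, and those of the muscle receptor (Chrna1, Chrnb1, Chrnd, Chrne and Chrng) were not among them. Only 21 genes reached 1 FPKM in 2 or more libraries, which was 31.3% of the receptor genes and nearly the same share of all genes. In each of the 12 groups, between 1 and 9 receptor genes were at 1 FPKM or more in both replicates. P0.5 Cre-positive SC had 9 (13.4%, against 14.9% of all genes). P0.5 Cre-negative SC had 4 (5.97%, against 6.15%) and P0.5 retina had 1 (1.49%, against 6.04%).

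**Figure D1:**
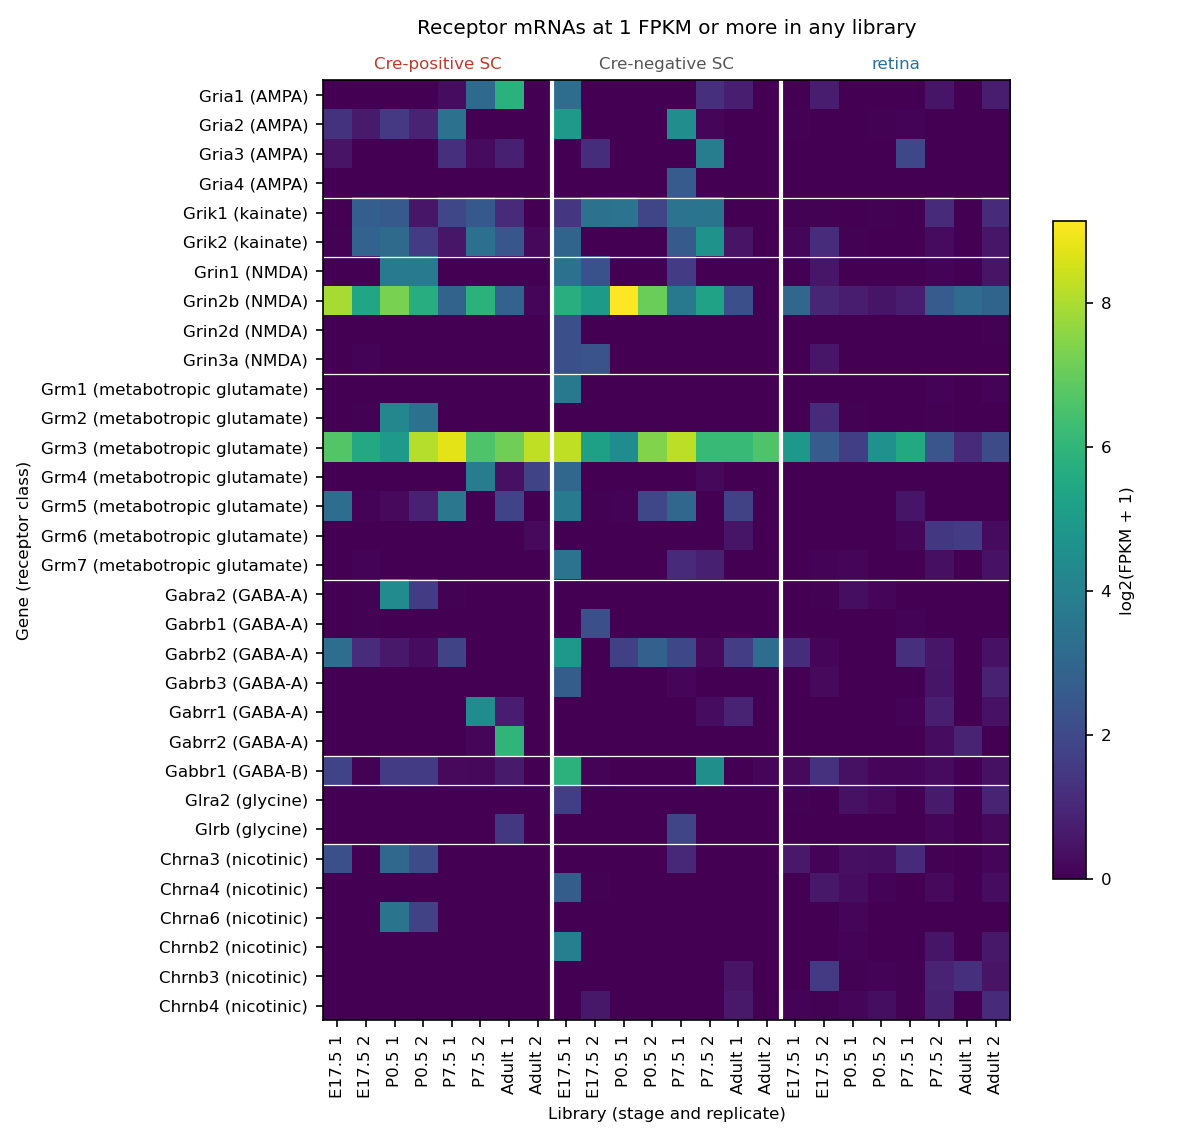
Level of the 32 receptor genes that reached 1 FPKM in any of the 24 libraries, as log2(FPKM + 1) in colour, with genes grouped by receptor class in rows and libraries grouped by source and stage in columns. The row of Grm3 is bright across the SC libraries of both Cre genotypes. That of Grin2b is bright in SC of both genotypes at E17.5 and P0.5 and does not exceed 6.36 FPKM in adult SC. Grin1, Grm2, Gabra2 and Chrna6 are seen in both P0.5 Cre-positive SC libraries, and 11 of the genes reached 1 FPKM in a single library.

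The receptor signal was dominated by a pair of genes, Grm3 and Grin2b. Grm3 (ENSMUSG00000003974, GRCm38 chr5:9485541-9725170, minus strand) encodes mGluR3, a group II metabotropic glutamate receptor coupled to inhibition of adenylyl cyclase and found in glia and axon terminals. Grin2b (ENSMUSG00000030209, chr6:135713233-136173511, minus strand) encodes GluN2B, the NMDA receptor subunit that predominates early in development. The pair made up a median of 87.7% (range 53.4 to 99.0%) of the summed FPKM of all receptor genes in the 8 Cre-positive SC libraries, 87.2% (59.9 to 97.9%) in the 8 Cre-negative SC libraries and 63.4% (41.3 to 94.2%) in the 8 retina libraries.

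Grm3 was above 0 in all 24 libraries. In Cre-positive SC the E17.5 libraries had 101 and 44.1 FPKM, those of P0.5 had 29.1 and 274, those of P7.5 had 431 and 97.5, and the adult ones 143 and 304. In Cre-negative SC it stood at 308 and 35.5, 20.6 and 170, 297 and 71.3, and 71.3 and 97.8 at the same stages. The genotypes overlapped at E17.5, P0.5 and P7.5, and the adult Cre-positive libraries lay above both adult Cre-negative ones. The differences between genotypes lay between -0.65 and 1.31 on the scale of log2(FPKM + 1), each with a standard error of 1.52, and none passed the test (limma, Benjamini-Hochberg adjusted p = 1 at all 4 stages). In retina Grm3 was lower, at 28.4 and 5.20, 2.25 and 23.5, 45.8 and 4.29, and 1.13 and 3.20 FPKM. The Cre-positive SC libraries lay above the retina libraries at every stage without overlap, by 2.33, 3.35, 3.71 and 6.13 in the order of the stages (log2, SE 1.55), but no difference passed the adjustment (adjusted p = 0.618, 0.124, 0.994 and 0.207).

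Grin2b reached 246 and 40.1 FPKM in Cre-positive SC at E17.5 and 157 and 51.2 at P0.5, then 6.41 and 56.8 at P7.5 and 6.36 and 0.0990 in the adult. In Cre-negative SC it was at 53.3 and 30.7, 560 and 135, 12 and 37.6, and 3.65 and 0. The highest value of any receptor gene, 560 FPKM, was thus that of an untagged P0.5 library, and the genotypes overlapped at all 4 stages. The difference at P0.5 was -1.61 (limma, SE 1.53, adjusted p = 0.598). The step from P7.5 to the adult in Cre-positive SC, -2.86 (SE 1.53), did not pass either (adjusted p = 1). In retina Grin2b stayed between 0.414 and 8.14 FPKM.

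**Figure D2:**
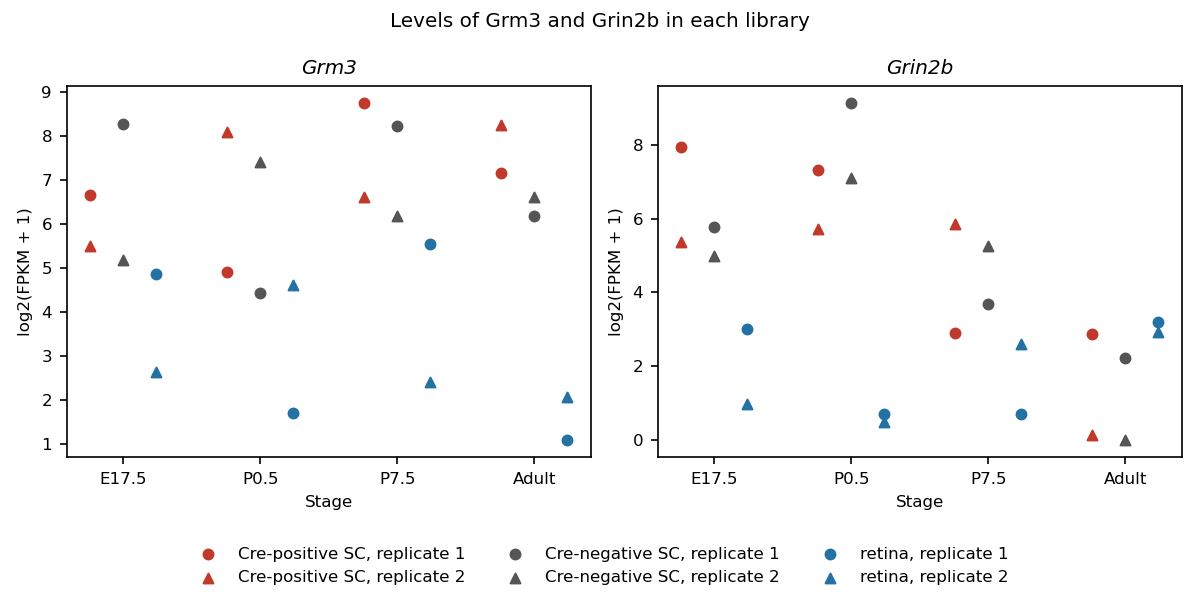
Grm3 and Grin2b in each of the 24 libraries, as log2(FPKM + 1) by stage, with colour for the source and symbol shape for the replicate. Cre-positive and Cre-negative SC libraries lie in the same range for Grm3 at E17.5, P0.5 and P7.5, and the retina libraries lie below the Cre-positive ones at all 4 stages. For Grin2b the highest point is Cre-negative replicate 1 at P0.5, at 560 FPKM.

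Setting Cre-positive against Cre-negative SC asks which mRNAs depended on the tag and so came from RGC axons. At P0.5, when RGC axons branch in the SC, 5 receptor genes were higher in Cre-positive SC and none was lower. They were the NMDA subunit Grin1, the metabotropic receptor Grm2, the GABA-A subunit Gabra2 and the nicotinic subunits Chrna6 and Chrna3. All 5 were listed at 0 in both Cre-negative libraries of that stage. The 5 were out of 19 receptor genes tested, beside 28.1% of the 5983 genes tested that were higher (1684 genes; 260 were lower), so the share among receptors was close to that among all genes. The median difference was 0.00 over the 19 receptor genes and 0.78 over all genes tested. Genes entered the test with 1 FPKM in at least 2 SC libraries. Chrna6, Gabra2 and Grm2 met that rule only through the P0.5 Cre-positive libraries in which they were high, so they had to differ, and the count is no support for the class as a whole. Without the filter the same number, 5 of 38 receptor genes, passed.

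Grin1 (ENSMUSG00000026959, chr2:25291181-25319187) encodes GluN1, the subunit that every NMDA receptor needs. It stood at 12.1 and 12.8 FPKM in the P0.5 Cre-positive libraries, which differed little. The difference from Cre-negative SC was 3.74 (SE 0.64, adjusted p = 9.53e-04). Grin1os overlaps Grin1 on the opposite strand and was listed at 0 in all 24 libraries. The library protocol is not stated to keep strand, so reads of the pair could not be told apart. Grm2 (ENSMUSG00000023192, chr9:106643095-106656082) encodes mGluR2, the other group II receptor and a presynaptic autoreceptor at many glutamatergic terminals. It was at 17.6 and 9.69 FPKM, with the smallest p of the class (3.82, SE 0.36, adjusted p = 1.59e-05). Its relative Grm3 was at 29.1 and 274 FPKM in the same libraries and, as given above, did not pass the test by genotype. That test did not pair libraries by replicate number. Between same-numbered P0.5 libraries, the ratio of Cre-positive to Cre-negative FPKM was 1.42 and 1.60 for Grm3.

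Gabra2 (ENSMUSG00000000560, chr5:70957597-71095849) encodes the α2 subunit of the GABA-A receptor, which is prominent in the immature brain. It was at 20.4 and 2.09 FPKM (3.02, SE 0.67, adjusted p = 0.00513), and so differed nearly as much between its replicates as from the background. Chrna6 (ENSMUSG00000031491, chr8:27403212-27413944) encodes the α6 subunit of nicotinic receptors, known from RGC and dopaminergic terminals. Its values were 10.5 and 2.39 FPKM (2.64, SE 0.46, adjusted p = 0.00104). Chrna3 (ENSMUSG00000032303, chr9:55010111-55026562) encodes the α3 subunit, which is needed for the early retinal waves. It was at 7.38 and 3.37 FPKM (2.60, SE 0.66, adjusted p = 0.0117). In all 3, replicate 1 carried the higher value. No β subunit of the nicotinic receptor was above 0 in these 2 libraries.

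The counts rested on both P0.5 Cre-positive libraries. With either one left out, Chrna6, Gabra2 and Grm2 no longer met the filter and were not tested, so they could not pass. Without replicate 1 none of the 16 receptor genes then tested passed, and without replicate 2 only Chrna3 and Grin1 did. With either Cre-negative replicate left out 4 passed, and Chrna3 was lost (adjusted p = 0.0686 and 0.0655). A fit to the 4 SC libraries of P0.5 alone gave 6 receptor genes higher and 1 lower of 11 tested, beside 59.3% of 4014 genes higher and 8.67% lower in that fit, and Gabra2 was not among them (adjusted p = 0.0761).

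**Figure D3:**
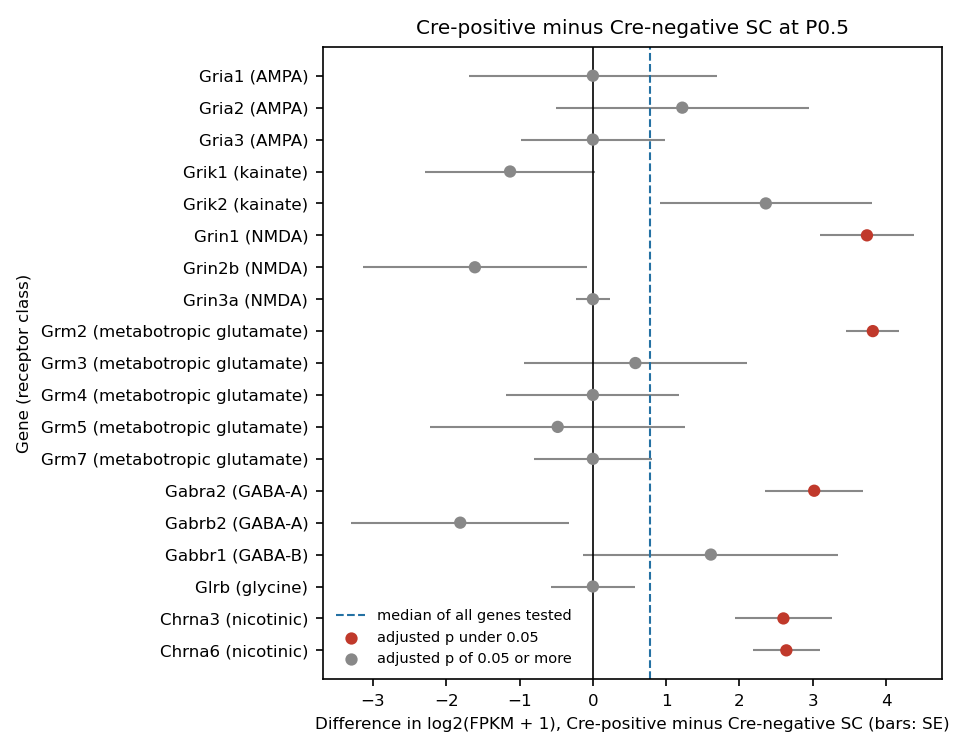
Difference in log2(FPKM + 1) between Cre-positive and Cre-negative SC at P0.5 for the 19 receptor genes tested, grouped by class, with bars of 1 standard error. Red points passed an adjusted p of 0.05, and the dashed line is the median of all 5983 genes tested, at 0.78. The 5 genes that passed lie between 2.60 and 3.82, to the right of that line, and several genes with no signal in either group lie at 0.

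The promoters of the 5 genes are shown because these genes appeared together in the same libraries. The RefSeq promoter table (GRCm38.p6, 250 bases before to 50 after the start) held 47 of the 67 receptor genes and 4 of these 5, all on the minus strand. They lie at chr2:25319138-25319437 (Grin1), chr9:106656060-106656359 (Grm2), chr5:71095800-71096099 (Gabra2) and chr9:55026513-55026812 (Chrna3). Capitals mark GC boxes, GGGCGG on either strand (written CCGCCC where it lies on the other strand), and in Grm2 also the left part of the RE1 element, TTCAGCACC, at which the neuronal repressor REST is known to bind.
Grin1: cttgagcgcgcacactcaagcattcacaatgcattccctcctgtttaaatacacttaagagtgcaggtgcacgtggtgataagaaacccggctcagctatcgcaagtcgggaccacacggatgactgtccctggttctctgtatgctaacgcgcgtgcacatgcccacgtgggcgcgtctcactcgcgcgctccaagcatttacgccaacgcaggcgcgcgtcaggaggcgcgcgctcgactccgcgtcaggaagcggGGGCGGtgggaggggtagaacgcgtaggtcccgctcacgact
Grm2: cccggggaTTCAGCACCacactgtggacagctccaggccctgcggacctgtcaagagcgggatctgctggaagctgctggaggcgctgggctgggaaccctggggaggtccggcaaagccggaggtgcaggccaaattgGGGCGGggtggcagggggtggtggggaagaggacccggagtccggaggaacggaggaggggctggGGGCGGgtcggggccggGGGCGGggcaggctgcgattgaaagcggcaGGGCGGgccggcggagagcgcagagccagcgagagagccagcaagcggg
Gabra2: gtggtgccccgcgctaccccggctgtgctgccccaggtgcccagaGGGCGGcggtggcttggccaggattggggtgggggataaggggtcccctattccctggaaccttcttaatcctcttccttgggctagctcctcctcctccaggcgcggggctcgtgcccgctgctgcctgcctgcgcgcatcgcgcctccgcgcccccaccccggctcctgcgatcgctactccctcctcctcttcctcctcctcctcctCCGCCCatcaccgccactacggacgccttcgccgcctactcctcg
Chrna3: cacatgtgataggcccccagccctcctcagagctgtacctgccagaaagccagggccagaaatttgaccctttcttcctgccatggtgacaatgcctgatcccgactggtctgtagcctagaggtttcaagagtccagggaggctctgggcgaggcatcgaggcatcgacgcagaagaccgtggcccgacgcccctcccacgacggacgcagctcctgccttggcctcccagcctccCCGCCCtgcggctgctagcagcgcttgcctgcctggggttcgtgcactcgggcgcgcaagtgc
The 4 promoters had GC contents of 60.7% (Grin1), 72% (Grm2), 70% (Gabra2) and 64.3% (Chrna3), against a median of 52.7% over 32851 mouse promoters of the same length. They held 1, 4, 2 and 1 GC boxes, and 35.7% of all promoters held at least 1. The left part of RE1, searched on both strands, was found once in Grm2 and in 0.371% of all promoters. TATAAA, on either strand, was in none of the 4 and in 13.6% of all. The motifs do not overlap one another in these windows, and each match describes letters, not binding.

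At E17.5 the only receptor gene that passed was lower in Cre-positive SC. Grin3a (ENSMUSG00000039579, chr4:49661611-49845744), which encodes the GluN3A subunit of juvenile NMDA receptors, was listed at 0 and 0.07 FPKM in Cre-positive SC and at 3.64 and 4.01 in Cre-negative SC. The difference was -2.22 (SE 0.23, adjusted p = 9.20e-04), beside 1.10% of the 5983 genes tested that were lower (66; 28 were higher). Its only SC libraries at 1 FPKM were those 2, so it too had to differ. Grin1 did not pass, at 0 and 0.02 FPKM against 9.53 and 3.88 (-2.83, SE 0.64, adjusted p = 0.0658). Without Cre-negative replicate 1, the library that stood apart, Grin3a no longer entered and no receptor gene passed. Without Cre-negative replicate 2, Grin1 and the metabotropic receptor Grm7 passed instead, both lower, and without Cre-positive replicate 2, Grin3a and Chrna3 passed (Chrna3 higher). The fit to the 4 libraries of that stage alone called none.

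No receptor gene differed by genotype at the later stages by the test. With limma none of the 19 passed at P7.5 (0% of all genes did, although at an unadjusted p under 0.05 there were 25 higher and 59 lower) or in adult SC (0.150% did), and none had an unadjusted p under 0.05 at either stage. Several large values there stood in 1 replicate. The following were picked after their values were seen. The AMPA subunit Gria1 was at 56.2 and 0 FPKM in the adult Cre-positive libraries. The GABA-A ρ subunits, known from retinal bipolar cells, were at 62.0 and 0 FPKM (Gabrr2, adult Cre-positive SC) and at 0 and 20.9 FPKM (Gabrr1, P7.5 Cre-positive SC). The AMPA subunit Gria2 was at 21.1 and 0.08 FPKM in Cre-negative SC at P7.5 and at 10 and 0 FPKM in Cre-positive SC. The kainate subunit Grik1 (ENSMUSG00000022935, chr16:87895900-88290265) was named for its level, at 10.2 and 10.4 FPKM in P7.5 Cre-negative SC and 2.89 and 4.77 in Cre-positive SC. At E17.5 it was at 1.71 and 9.50 in Cre-negative and 0 and 5.60 in Cre-positive SC, and at P0.5 at 10.1 and 2.75 and at 4.98 and 0.46. Its difference was between -1.26 and -1.05 at these 3 stages (SE 1.16) and did not pass at any.

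In Cre-positive SC, 4 receptor genes rose up to P0.5 and 5 fell after it. From E17.5 to P0.5, 4 of 19 rose and none fell: Grin1 (0 and 0.02 FPKM at E17.5, 3.73, adjusted p = 0.00112), Grm2, Gabra2 and Chrna6. The share of all genes that rose was 25.1% (1504; 108 fell), and the median difference was 0.20 for receptor genes and 0.69 for all genes. Chrna3 was already at 3.69 FPKM in 1 of the E17.5 libraries and at 0 in the other, and did not pass. From P0.5 to P7.5, 5 of 19 fell and none rose, beside 29.2% of all genes (1750; 30 rose). They were the same 5 genes that were higher in Cre-positive SC at P0.5, and later Grin1, Grm2, Chrna6 and Chrna3 were listed at 0 in all 4 Cre-positive libraries and Gabra2 did not exceed 0.04 FPKM. From P7.5 to the adult none passed, with an unadjusted p under 0.05 for none, beside 0.0836% of all genes. These steps share the P0.5 Cre-positive libraries with the comparison of genotypes and are no separate evidence. Chrna6, Gabra2 and Grm2 met the filter only through those libraries, so they had to rise and then fall, and the counts are no support for the class. With either of those libraries left out, these genes were not tested and could not pass. Without P0.5 replicate 1 none passed in either step, and without replicate 2 none passed in the first and Chrna3 and Grin1 in the second.

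**Figure D4:**
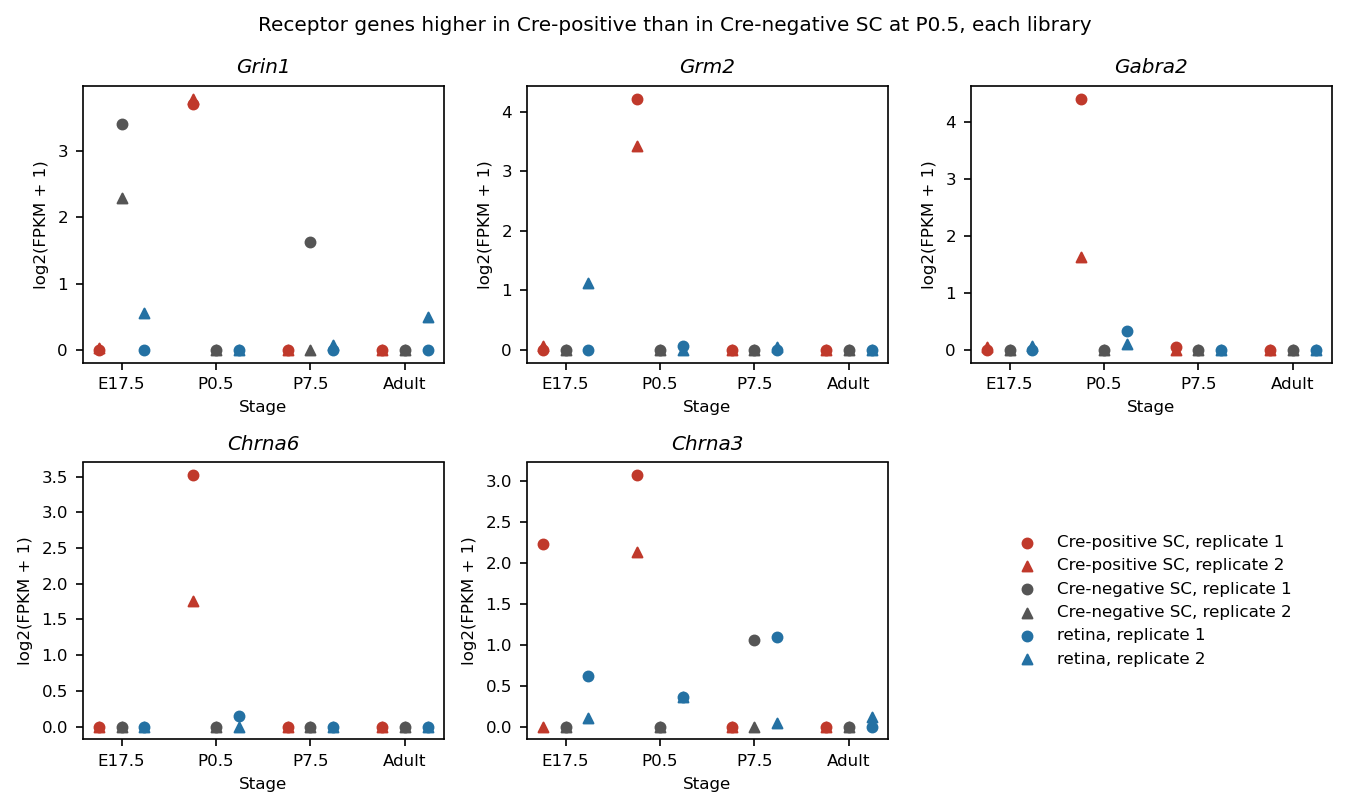
The 5 receptor genes that were higher in Cre-positive than in Cre-negative SC at P0.5, in each of the 24 libraries, as log2(FPKM + 1) by stage, with colour for the source and symbol shape for the replicate; each panel has its own vertical scale. Both P0.5 Cre-positive points lie above all other P0.5 points in each panel, and Grin1 also has both E17.5 Cre-negative points above 2.

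The interaction of stage with Cre tests whether these steps differed between the tagged and the untagged SC. From E17.5 to P0.5, 5 of 19 receptor genes passed, all in the direction of Cre-positive SC, beside 23.9% of all genes (1428; 193 in the other direction). From P0.5 to P7.5, 5 of 19 passed in the opposite direction, beside 18.7% (1121, with 164 the other way). As above, Chrna6, Gabra2 and Grm2, and in the first step Grin3a, entered only through the group where they were high. With either P0.5 Cre-positive library left out, Chrna6, Gabra2 and Grm2 were not tested. Grin1 had the largest of these differences among receptor genes, 6.57 (SE 0.91, adjusted p = 4.43e-04) and -4.56 (SE 0.91, adjusted p = 0.00419), with its signal in the Cre-negative libraries at E17.5 and in the Cre-positive ones at P0.5. From P7.5 to the adult no receptor gene passed, nor did any with an unadjusted p under 0.05 (0% of all genes passed). With either of the P0.5 Cre-positive libraries left out, only Grin1 passed in the first step and none in the second. With either of the P0.5 Cre-negative libraries left out, Grin1 and Grm2 passed in the second.

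In retina the summed level of the receptor mRNAs was lower than in SC of either genotype, and no receptor gene passed a test across stages. Over all 67 genes it came to between 4.97 and 52.9 FPKM per library, against 98.3 to 466 in Cre-positive and 82.8 to 593 in Cre-negative SC. Most of this was Grm3 and Grin2b. Without that pair the sums were 1.47 to 9.04 FPKM in retina, 3 to 130 in Cre-positive SC and 7.87 to 220 in Cre-negative SC. These ranges overlapped only through adult SC libraries. Cre-positive replicate 2 (3 FPKM) and both Cre-negative replicates (7.87 and 8.62) lay below the highest retina library. Only 6 receptor genes could be tested (Grin2b, Grm3, Grik1, Gabrb2, Chrnb3 and Grm6), and none passed in any of the 3 steps, nor had an unadjusted p under 0.05. The shares of all 4083 genes tested were 0%, 0.0490% and 0%. Grm6, the mGluR6 of ON bipolar cells, was picked after its values were seen: it was listed at 0 in all 4 libraries of E17.5 and P0.5 and at 0.12 and 1.78 FPKM at P7.5 and 2.02 and 0.210 in the adult. In the same 8 libraries the summed FPKM of 5 bipolar cell markers was 1.60 and 12.5, 3.79 and 1.84, 0.857 and 12.9, and 8.21 and 13.1 in the order of the stages. Chrnb3, a nicotinic subunit known from RGCs, was above 0 in all 8 retina libraries, between 0.02 and 1.91 FPKM, and Chrnb4 in 7.

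Between Cre-positive SC and retina, 6 of 18 receptor genes were higher in SC at P0.5 and none was lower, beside 32.7% of 6322 genes (2067; 127 were lower). These were the 5 genes above and Grin2b, at 157 and 51.2 FPKM against 0.65 and 0.414 (limma, 5.89, SE 1.48, adjusted p = 0.00851). Untagged Cre-negative SC of that stage held Grin2b at 560 and 135 FPKM, so it lay above retina as well, and the Grin2b difference is not one of axons alone. The median difference was 1.44 for receptor genes and 1.10 for all genes. For 4 of the 5, retina held a trace: Chrna3 was at 0.29 and 0.28 FPKM, Gabra2 at 0.25 and 0.08, Chrna6 at 0.10 and 0, and Grm2 at 0.04 and 0. Grin1 was listed at 0 in both. The same P0.5 Cre-positive libraries entered here as above, and Grin1, Gabra2 and Chrna6 met the filter of this fit only through them, so these 3 had to differ. With either of those libraries left out, these 3 were not tested and could not pass. Without P0.5 Cre-positive replicate 1 only Grm2 passed, and without replicate 2 Grm2, Chrna3 and Grin2b did. At the other 3 stages none of the 18 passed, with 1 at an unadjusted p under 0.05 at each stage, beside 1.31% (E17.5), 0.0158% (P7.5) and 0.0949% (adult) of all genes. SC libraries were amplified by more rounds of PCR than those of the eye, and the part of amplification in these differences was not tested.

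Proteins that traffic and anchor receptors were looked at as a list of 44 genes, of which 43 were in the files and 18 could be tested in SC. At P0.5, 5 of the 18 were higher in Cre-positive SC, close to the 28.1% of all genes, and 1 was lower. The median difference was 1.97, against 0.78 over all genes. All 5 were also above 1 FPKM in E17.5 Cre-negative replicate 1, the library that stood apart. The nicotinic receptor modulator Ly6h was at 123 and 99.6 FPKM against 0 and 0 (6.81, SE 1.93, adjusted p = 0.0200). The AMPA receptor auxiliary subunit Cacng3 was at 26.6 and 28.1 against 0 and 0 (4.82, adjusted p = 0.00342), and Pick1, which binds AMPA and other receptors, at 56.4 and 32.5 against 0 and 0 (5.45, SE 1.23, adjusted p = 0.00589). Lhfpl4, a partner of GABA-A receptors at inhibitory synapses, was at 7.67 and 7.12 against 0 and 0, and Shisa7 was the fifth. The scaffold Dlg2 was lower (-1.84, SE 0.64, adjusted p = 0.0480). At the other 3 stages no partner passed, nor did any in any step within retina. In Cre-positive SC, 6 of the 18 rose and 1 fell from E17.5 to P0.5 (25.1% of all genes rose), and 6 fell from P0.5 to P7.5 (29.2% fell). Against retina at P0.5, 8 of 18 were higher in Cre-positive SC (32.7% of all genes were). With either P0.5 Cre-positive library left out, only 15 partners met the filter of the fit with retina. Some thus entered it only with those libraries, and the count against retina is no support for the list as a whole. Without P0.5 Cre-positive replicate 1 these counts were 1 for the genotypes, 0 and 0 for the steps and 3 against retina, and without replicate 2 they were 3, 1, 1 and 4. Without Cre-negative replicate 1 or 2, 2 partners were higher by genotype, and without P7.5 replicate 1 or 2, 3 fell after P0.5.

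Of the marker lists, 1 gene each of 4 cell types was higher in Cre-positive SC at P0.5, beside 28.1% of all genes. Of 8 RGC markers 5 could be tested, and the vesicular glutamate transporter Slc17a6 was higher (12.2 and 5.13 against 1.46 and 0.223 FPKM), and the 8 summed to 301 and 111 FPKM in Cre-positive and 758 and 200 in Cre-negative SC. Of the 5 astrocyte markers 4 were tested and Aldh1l1 was higher (19.9 and 18.2 against 0 and 0.0289 FPKM), and the list summed to 47.9 and 36.2 against 5.77 and 10.6. Prkca, the only bipolar marker tested, was higher, and so was Slc6a9 of 2 amacrine markers tested. The 5 bipolar markers summed to 5.04 and 5.45 against 0 and 0 FPKM, and the 5 amacrine markers to 206 and 87.9 against 178 and 61.5. The 3 markers of SC interneurons (Gad1, Gad2 and Slc32a1), the 5 of oligodendrocytes and the 5 of photoreceptors were listed at 0 in all 4 SC libraries of P0.5. The part of other cells in the receptor differences was not tested. In these bulk samples, fewer cells of a type and less RNA per cell cannot be told apart.

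In a run-off, initiation is blocked and ribosomes already at work complete their peptide and detach, so the pulldown afterwards loses the mRNAs that were being translated. There was 1 library per condition and hence no test, and reads are given unscaled because, in the study's methods, library input followed the amount of cDNA. The libraries held 3262914 reads without and 349395 with run-off in SC, and 4686284 and 315009 in retina. In SC, 12 of the 67 receptor genes had a read without run-off and 5 with it, beside 5354 and 2764 of all 23995 genes. All 8 with at least 10 reads had fewer with run-off (96.6% of the 4010 such genes did), 6 had none left (52.9%), and in CPM (reads scaled to the library total) all 8 were at least 2-fold lower (74.7%). In retina, 23 of the 67 receptor genes had a read without run-off and 3 with it, beside 9159 and 3736 of all 23995 genes. All 10 with at least 10 reads had fewer (97.3% of 6674 genes), 9 had none left (55.0%) and 9 were at least 2-fold lower in CPM (63.4%). With run-off, a gene at 0 reads may still have had up to 3, or 8.59 CPM in SC and 9.52 CPM in retina, so that the loss of genes with few reads could not be sized.

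The receptor reads of adult Cre-positive SC were led by Grin2b, with 939 reads without run-off (exact Poisson 95% interval 880 to 1001) and none with it (0 to 3.69). No count library came from Cre-negative SC, so axonal reads and the background of the pulldown cannot be told apart here. In the adult FPKM libraries Grin2b was at 6.36 and 0.0990 in Cre-positive SC and at 3.65 and 0 in Cre-negative SC. Gabbr1 had 506 reads (463 to 552) and 1, and the kainate subunit Grik2 had 204 (177 to 234) and 1. The GABA-A subunits Gabrb1 and Gabra3 had 97 and 71 reads and the AMPA subunit Gria2 had 75, and none of these was left with run-off. These genes, of excitatory and inhibitory receptors, thus had at most 1 read left each, and no nicotinic or glycine receptor subunit had a read in either SC library. In retina Chrna6 had 48 reads (35.4 to 63.6) and none with run-off, Grin2b with 41 and none, Chrna2 with 29 and none, and Grik2 with 25 and 1. Unlike in SC, 4 nicotinic subunits had at least 10 reads in retina, with 116 nicotinic reads in all and none with run-off. The intervals hold counting error alone, because amplified reads without molecular tags are not separate molecules.

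Grik1 went the other way in both tissues. In SC its reads numbered 2 in the library without and 75 (59.0 to 94.0) in that with run-off, and in retina 0 and 35 (24.4 to 48.7). This made up 75 of the 80 receptor reads left in SC and 35 of the 37 left in retina. With at least 30 reads with run-off and at most 3 without, 171 of the 23995 genes behaved so in SC and 49 in retina, and 2 did so in both, Grik1 and Cstf2. These limits were set after the reads of Grik1 were seen.

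**Figure D5:**
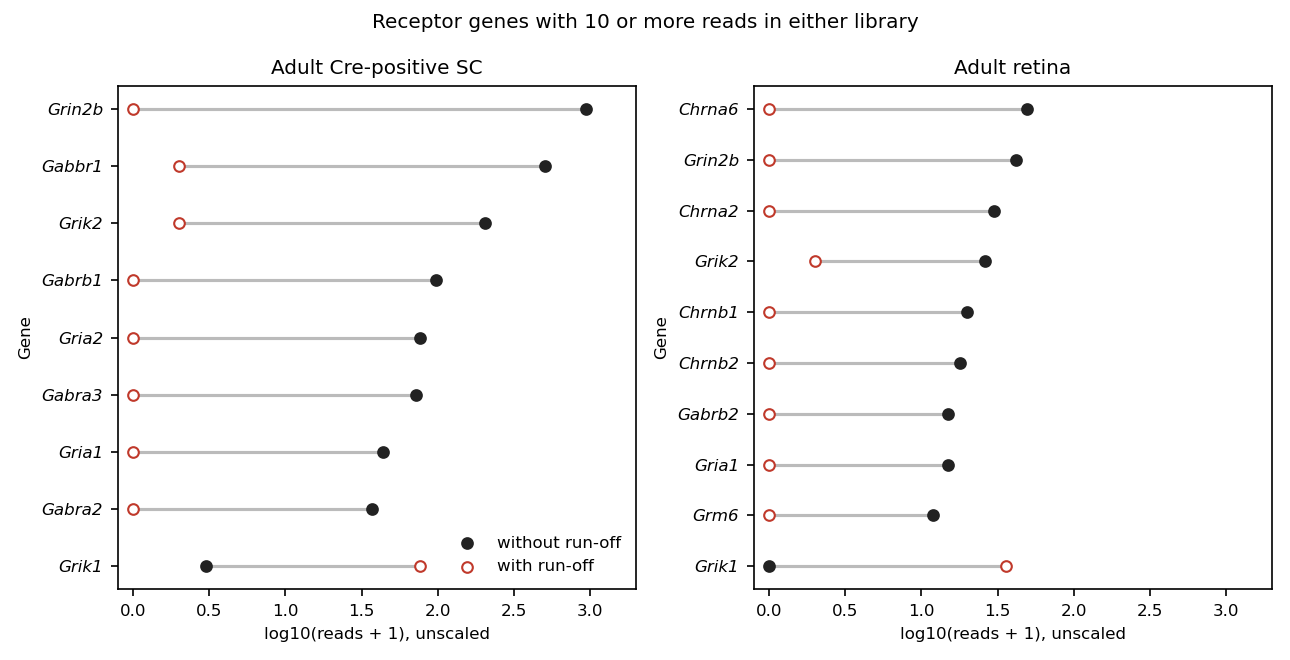
Reads of receptor genes with 10 or more reads in either library (1 retina gene is not shown), without (filled) and with run-off (open), as log10(reads + 1) without scaling, for adult Cre-positive SC (left) and adult retina (right). Open points lie at or near 0 reads for every gene shown but Grik1, whose points are in the opposite order in both panels.

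The FPKM libraries and the run-off libraries of the adult did not show the same receptor genes. Of the 8 receptor genes with at least 10 reads in SC without run-off, 4 (Gabrb1, Gria2, Gabra3 and Gabra2) were listed at 0 FPKM in both adult Cre-positive libraries, and 3 (Grin2b, Grik2 and Gria1) reached 1 FPKM in either. In retina Chrna6 and Chrna2 had at least 10 reads and were listed at 0 FPKM in both adult libraries. Grm3 stood out in the reverse sense: at 143 and 304 FPKM in the adult Cre-positive libraries it had 1 read without and 1 with run-off (0.0253 to 5.57 each). A level of 50 FPKM was reached in both of those libraries by 236 genes, of which 13 (5.51%) had 3 reads or fewer, and the median gene had 1610. Reads were assigned to genes by HTSeq and FPKM were estimated by Cufflinks, so the library and the way of counting differ together and cannot be told apart.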

How the data were processed

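Ribosome-bound mRNA was pulled down from Cre-positive SC, Cre-negative SC and Cre-positive eyes (called retina), amplified from oligo(dT)-primed cDNA and sequenced. The deposited FPKM values of 24 libraries were made by the authors with TopHat 2.0.12 and Cufflinks 2.2.1 on mm10, and the deposited read counts of the 4 run-off libraries were made by the authors with HTSeq 0.6.1p1 (versions per the submitters' processing notes). The library input followed the amount of cDNA, so run-off reads were compared unscaled and also as CPM.

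Members were selected by symbol, and members, gene lists and rules were chosen with earlier results of these data known. FPKM were tested as log2(FPKM + 1) with limma 3.58.1 (R 4.3.3, intensity trend, robust) on all genes that reached 1 FPKM in 2 or more of the fitted libraries. There were 3 fits: the 16 SC libraries (5983 genes), the 8 retina libraries (4083) and Cre-positive SC with retina (16 libraries, 6322). P-values were two-sided and adjusted by Benjamini-Hochberg over all genes of a fit, with a threshold of 0.05. Genes named were those with at least 5 FPKM in both replicates of a group, those that passed a test, and those with at least 50 run-off reads. Others were picked after their values were seen. This is so for Gria1, Gabrr1, Gabrr2, Gria2 at P7.5, Grm6, Chrnb3, Chrnb4 and Chrna2, and for the check genes Gapdh, Ppia, Ywhaz, Eef1a1, Actb, Pgk1 and Hprt. The script was tested on simulated data with known changes. Intervals of reads are exact Poisson 95% intervals. Promoters came from RefSeq (GRCm38.p6), and gene positions from GENCODE (GRCm38). Alternatives were another pseudocount, filter, scaling, single-stage fits, a replicate block and leaving out each library (for the partners this was added after seeing the data). The run-off result of 1 retina gene is not reported here.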

Additional observations from a re-analysis of the deposited data

Results flagged for a closer look

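The step between stages differed between Cre-positive and Cre-negative SC for 6 receptor genes, by the interaction term of the limma fit with Benjamini-Hochberg adjustment over 5983 genes. From E17.5 to P0.5 the difference of the steps (Cre-positive minus Cre-negative, log2 scale) was 6.57 for Grin1 (SE 0.91, adjusted p = 4.43e-04), 3.78 for Grm2 (SE 0.51, adjusted p = 3.85e-04), 3 for Gabra2 (SE 0.94, adjusted p = 0.0375), 2.64 for Chrna6 (SE 0.64, adjusted p = 0.0111) and 2.22 for Grin3a (SE 0.33, adjusted p = 6.36e-04). Grin3a was at 3.64 and 4.01 FPKM in the E17.5 Cre-negative libraries and at 0 in all 4 SC libraries of P0.5, so its difference came from the Cre-negative step, with -0.05 in Cre-positive SC. Grin1 was at 9.53 and 3.88 FPKM in the E17.5 Cre-negative libraries and at 12.1 and 12.8 in the P0.5 Cre-positive ones. For Grm2, Gabra2 and Chrna6 the Cre-negative libraries were listed at 0 at both stages. From P0.5 to P7.5 the difference was -4.56 for Grin1 (SE 0.91, adjusted p = 0.00419), -3.82 for Grm2 (SE 0.51, adjusted p = 4.11e-04), -3.12 for Chrna3 (SE 0.94, adjusted p = 0.0373), -2.99 for Gabra2 (SE 0.94, adjusted p = 0.0457) and -2.64 for Chrna6 (SE 0.64, adjusted p = 0.0132). Chrna6, Gabra2 and Grm2 passed the filter on low values only through the P0.5 Cre-positive libraries, and Grin3a only through the E17.5 Cre-negative ones, so these 4 had to differ and their p-values are no support. All these values share the P0.5 Cre-positive libraries. When either of those libraries was left out, Grm2, Gabra2 and Chrna6 no longer met the filter and were not tested. Of the other calls, not all held.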

How the results depend on the processing

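Of the 76 counts of receptor genes recomputed with another pseudocount, filter, scaling, replicate block, single-stage fit or run-off limit, 73 stayed within 1.5 times of the value given. The exceptions were the E17.5 comparison of genotypes, with 0 in a fit to the 4 libraries of that stage alone, the interaction from P0.5 to P7.5, with 3 when no filter was used, and the retina run-off count, with 23 of 25 genes when 1 read in either library sufficed. The last follows from counting genes with few reads, and the cause of the first 2 was not tested. Leaving out 1 library gave between 0 and 2 receptor genes by genotype at E17.5, between 0 and 4 at P0.5, between 0 and 5 for each of the Cre-positive steps from E17.5 to P0.5 and from P0.5 to P7.5, between 1 and 5 and between 0 and 4 for the interactions of these steps, and between 1 and 5 for Cre-positive SC against retina at P0.5. Against retina it was between 0 and 1 at P7.5 (1 without Cre-positive replicate 1) and between 0 and 1 in adult tissue (1 without Cre-positive replicate 2), and in all other comparisons 0 throughout. For the 31 called pairs of gene and comparison, other settings left 123 of 130 values past the threshold, with no change of direction. Leaving out 1 library gave 124 values, again with no change of direction, but not all of these calls held. Fits in which the gene no longer met the filter gave no value and are not among the 124, so those calls were lost as well. Median-ratio scaling moved the median difference of all genes in retina from -0.50 to -0.12 (E17.5 to P0.5) and from 0.32 to 0.03 (P0.5 to P7.5), in the P0.5 comparison of Cre-positive SC with retina from 1.10 to 0.94, and in the interaction from E17.5 to P0.5 from 1.59 to 1.48. The replicate numbers were not taken to pair the libraries, since not every correlation was over 0.1: the deviations of same-numbered Cre-positive and Cre-negative libraries correlated by 0.394, 0.429, 0.319 and 0.0620 over the 4 stages. With a replicate block 5 receptor genes passed by genotype at P0.5, 1 at E17.5 and 7 against retina at P0.5, the 6 given and Grm3 (3.35, SE 0.84, limma adjusted p = 0.0185, against 0.124 without the block). Depth is unknown for the FPKM libraries, and genes near 1 FPKM were read from few or failed estimates.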

Other observations

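For both Grm3 and Grin2b, the same-numbered replicate was the higher one in all 3 sources at 4 of 4 stages. Among all genes at 1 FPKM or more in all 6 libraries of a stage, this held for 330 of the 618 of E17.5 (53.4%), 506 of the 693 of P0.5 (73.0%), 359 of the 579 of P7.5 (62.0%) and 87 of the 307 of adult tissue (28.3%). Between same-numbered Cre-positive and Cre-negative libraries, Grm3 had a ratio of FPKM between 0.328 and 3.11 and was higher in Cre-positive SC in 7 of 8 pairs, and Grin2b had a ratio between 0.280 and 4.62 and was higher in 4 of 7 pairs with a value in both. Between same-numbered Cre-positive SC and retina libraries, the ratio was between 3.56 and 127 for Grm3, higher in SC in 8 of 8 pairs, and between 0.0148 and 241 for Grin2b, higher in 6 of 8. The labels do not say what a replicate number stands for, so no test was made of these ratios.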
